A study of Mus musculus with 2 samples.

Results

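The receptors described here are 8 genes that natural killer (NK) cells use to read the surface of other cells, of 32285 genes counted in the series. They are the 7 C-type lectin receptor genes Klrb1c, Klrc1, Klrc2, Klrd1, Klrk1, Klrg1 and Klre1, and Ncr1. All were chosen by name. Their transcripts were counted in cells from CT26 tumours, a mouse colon carcinoma line grown in BALB/c mice. One tumour group expressed PTIR1, a factor that the series title calls an immunoproteasome suppressor, and the other was a mock control. Droplet-based 3′ single-cell RNA sequencing gave 1 library per group, with 9006 barcodes and 98540561 unique molecular identifiers (UMIs) in the PTIR1 library and 10833 barcodes and 95166611 UMIs in the mock library. Without replicate libraries no difference was tested, and the intervals given are 95% intervals for counting error alone. The labels give tumour-infiltrating lymphocytes as the source, and give neither the number of mice nor the ages. No gene row was named PTIR1, so its level was not analysed here.

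NK cells weigh signals from activating and inhibitory receptors. Klrd1 (CD94) forms heterodimers at the cell surface with Klrc1 (NKG2A), which inhibits, or with Klrc2 (NKG2C), which activates, and both pairs bind the non-classical class I molecule Qa-1, encoded by H2-T23. Klrk1 (NKG2D) activates through the adaptors Hcst (DAP10) and Tyrobp (DAP12) when it meets stress-induced ligands of the Raet1, H60 and Ulbp1 groups, and it is also carried by activated CD8 T cells. Ncr1 (NKp46) activates through Cd247 and Fcer1g, and in mice it marks NK cells and some other innate lymphoid cells. Klrg1 is an inhibitory receptor for cadherins found on mature NK cells and on some T cells, regulatory T cells included. Klre1 pairs with Klri1 or Klri2. Klrb1c is an activating member of the NKR-P1 family, and the antibody epitope NK1.1 that it carries in C57BL/6 mice is absent in BALB/c mice.

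Of the 8 genes, 7 lie on chromosome 6 of the mm10 genome and Ncr1 lies on chromosome 7 (positions 4337724 to 4345164, plus strand). Klre1, Klrd1, Klrk1, Klrc2 and Klrc1 share a stretch of 101.1 kb of chromosome 6, from 129577905 to 129678973. Klrb1c lies at 128778485 to 128789215 and Klrg1 at 122270596 to 122282882, both on the minus strand. All 8 are protein-coding genes in GENCODE vM21. RefSeq promoters on GRCm38.p6 (250 bases before to 50 after a start) were found for 6 genes, and Klrd1 and Klrg1 had no entry. The first listed promoters of 2 genes that NK and CD8 T cells share below (Klrc1, Klrk1), and of 2 that CD8 T cells hold little of (Klrb1c, Ncr1), are printed 5′ to 3′, with capitals marking matches to the RUNX motif TGTGGT and the ETS motif GGAAGT or their reverse complements.
Klrc1 (chr6:129678924-129679223, minus strand): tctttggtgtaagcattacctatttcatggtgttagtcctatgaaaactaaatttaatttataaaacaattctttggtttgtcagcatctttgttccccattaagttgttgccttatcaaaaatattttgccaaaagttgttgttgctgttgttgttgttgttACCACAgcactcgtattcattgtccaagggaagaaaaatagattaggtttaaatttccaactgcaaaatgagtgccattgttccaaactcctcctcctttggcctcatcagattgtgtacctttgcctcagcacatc
Klrk1 (chr6:129623815-129624114, minus strand): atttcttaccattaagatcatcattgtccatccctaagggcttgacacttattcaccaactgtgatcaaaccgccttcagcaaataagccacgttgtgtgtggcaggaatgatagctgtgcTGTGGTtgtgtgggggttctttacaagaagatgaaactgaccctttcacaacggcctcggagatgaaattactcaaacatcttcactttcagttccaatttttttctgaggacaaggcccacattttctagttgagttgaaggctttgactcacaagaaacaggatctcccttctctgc
Klrb1c (chr6:128788592-128788891, minus strand): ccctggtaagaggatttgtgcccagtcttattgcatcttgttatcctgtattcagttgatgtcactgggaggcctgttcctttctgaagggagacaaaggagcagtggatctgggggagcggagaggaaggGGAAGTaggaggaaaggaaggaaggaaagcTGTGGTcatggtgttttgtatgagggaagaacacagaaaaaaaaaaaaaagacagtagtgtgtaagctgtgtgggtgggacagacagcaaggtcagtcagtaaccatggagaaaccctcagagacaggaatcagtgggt
Ncr1 (chr7:4337465-4337764, plus strand): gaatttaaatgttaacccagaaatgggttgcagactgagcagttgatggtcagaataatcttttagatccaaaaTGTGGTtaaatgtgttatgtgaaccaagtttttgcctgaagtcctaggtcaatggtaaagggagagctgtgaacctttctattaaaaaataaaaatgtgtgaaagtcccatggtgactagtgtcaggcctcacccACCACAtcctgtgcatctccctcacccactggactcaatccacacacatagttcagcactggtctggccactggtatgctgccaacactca
TGTGGT or ACCACA occurred in all 6 promoters, and in 16.8% of all 32851 mouse promoters of this length. GGAAGT or ACTTCC occurred in 1 of the 6, that of Klrb1c, and in 23.8% of all promoters. The T-box motif TCACACC or GGTGTGA occurred in 0 of the 6 and in 3.98% of all promoters. No matches overlap in the printed promoters, and a match is a description of the letters only.

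After filters on quality and doublets, 7109 PTIR1 cells (median 6452 UMIs) and 8632 mock cells (median 3131.5 UMIs) were kept, and 30 barcodes occurred in both libraries. Cells were sorted into gates by transcripts, using none of the 8 receptors. A cell entered an NK gate with UMIs of at least 3 of 11 NK marker genes, such as Eomes, Txk, Prf1 and Il2rb, and no T cell signature. It was called Itga1 positive with a UMI of Itga1, the integrin chain CD49a that marks tissue-resident NK cells and type 1 innate lymphoid cells, and it is simply the NK gate below where Itga1 was not detected. The Itga1 positive gate held 144 PTIR1 and 163 mock cells, and the NK gate 436 PTIR1 and 331 mock cells. Levels are given as CPM, a gene's UMIs in a gate scaled to a common total of UMIs. NK markers summed to 14833 CPM in PTIR1 and 13323 CPM in mock Itga1 positive cells, and to 13121 CPM in PTIR1 and 13014 CPM in mock cells of the NK gate, against 190 CPM in PTIR1 and 173 CPM in mock B cells. Because the gates were drawn with these markers, the sums describe the gates and do not test them. Cd3e was found in 4 of 436 PTIR1 and 5 of 331 mock cells of the NK gate. Other T cell transcripts were more frequent there. Cd3g was found in 54 PTIR1 and 47 mock cells, Trac in 31 PTIR1 and 23 mock cells, and Cd3d in 22 PTIR1 and 17 mock cells. Median depth was 13778 UMIs in PTIR1 and 13546 in mock Itga1 positive cells, against 7288 in PTIR1 and 6251 in mock cells of the NK gate. Although the source is labelled as lymphocytes, 1494 PTIR1 and 2763 mock cells carried the markers of macrophages or monocytes. A further 349 PTIR1 and 339 mock lymphoid barcodes carried markers of a second lineage and were set aside, by limits chosen after the data were seen. Macrophage markers summed to 9034 CPM in the set-aside PTIR1 barcodes and 9732 CPM in the mock ones, against 471 CPM in PTIR1 and 489 CPM in mock cells of the NK gate. The limits used these same markers, so a gap of this kind was built in.

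In both libraries each of the 8 receptors had its highest level in an NK or T cell gate, and the receptors divided into those that CD8 T cells also carried and those of which they had little. Klrd1, the common chain of the CD94 pairs, stood at 676 CPM in PTIR1 and 646 CPM in mock Itga1 positive cells. In the NK gate it stood at 702 CPM in PTIR1 and 616 CPM in mock cells. Klrc1, its inhibitory partner, had 204 CPM in PTIR1 and 219 CPM in mock Itga1 positive cells, and 224 CPM in PTIR1 and 186 CPM in mock cells of the NK gate. These levels lie within a narrow band, and neither library was higher in both gates for Klrc1.

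The activating partner Klrc2 had 105 CPM in PTIR1 and 119 CPM in mock Itga1 positive cells, and 122 CPM in PTIR1 and 126 CPM in mock cells of the NK gate. Klrk1 had 350 CPM in PTIR1 and 380 CPM in mock Itga1 positive cells, and 440 CPM in PTIR1 and 431 CPM in mock cells of the NK gate. Klre1 had 359 CPM in PTIR1 and 348 CPM in mock Itga1 positive cells, and 384 CPM in PTIR1 and 349 CPM in mock cells of the NK gate. All 3 genes differed by less than 1.26-fold between libraries in a gate and between gates in a library. Klrb1c had 134 CPM in PTIR1 and 154 CPM in mock Itga1 positive cells, and 138 CPM in PTIR1 and 133 CPM in mock cells of the NK gate. Ncr1 had 715 CPM in PTIR1 and 812 CPM in mock Itga1 positive cells, and 731 CPM in PTIR1 and 695 CPM in mock cells of the NK gate. For Klrb1c and Ncr1 the PTIR1 library was thus lower in 1 gate and higher in the other. Klrg1 was the exception in that its level followed the gate: 152 CPM in PTIR1 and 133 CPM in mock Itga1 positive cells, against 49.5 CPM in PTIR1 and 41.3 CPM in mock cells of the NK gate.

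B cells are not known to carry these receptors, so UMIs there serve as a background, which was not the same in every gate. The B gate held 12.4 CPM of Klrd1 in the PTIR1 and 20.3 CPM in the mock library, and 7.32 CPM of Ncr1 in the PTIR1 and 12.1 CPM in the mock library. Klrg1 had 7 UMIs in 733 PTIR1 B cells and 0 UMIs in 396 mock B cells. Neutrophils held Klrd1 at 41.6 CPM in the PTIR1 and 23.1 CPM in the mock library, mast cells or basophils at 37.4 CPM in the PTIR1 and 36.3 CPM in the mock library, and barcodes in no gate at 55.5 CPM in the PTIR1 and 75.6 CPM in the mock library. In the Tm4sf1-led gate, which holds tumour cell markers, all 8 genes were below 2 CPM in both libraries. Levels are CPM and not per length, so they are compared between cells and not between genes. Reads of BALB/c cells were counted on mm10, a genome of the C57BL/6 strain, and the effect of strain differences in these genes was not tested. Of the 451 stretches of 50 bases in the last 500 bases of the Klrc1 transcript, 254 (56.3%) also occur in a GENCODE transcript of Klrc2, so the division of reads between these 2 genes is uncertain. The last 500 bases of the transcripts read for the other 7 genes held no such stretch of another gene.

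**Figure D1:**
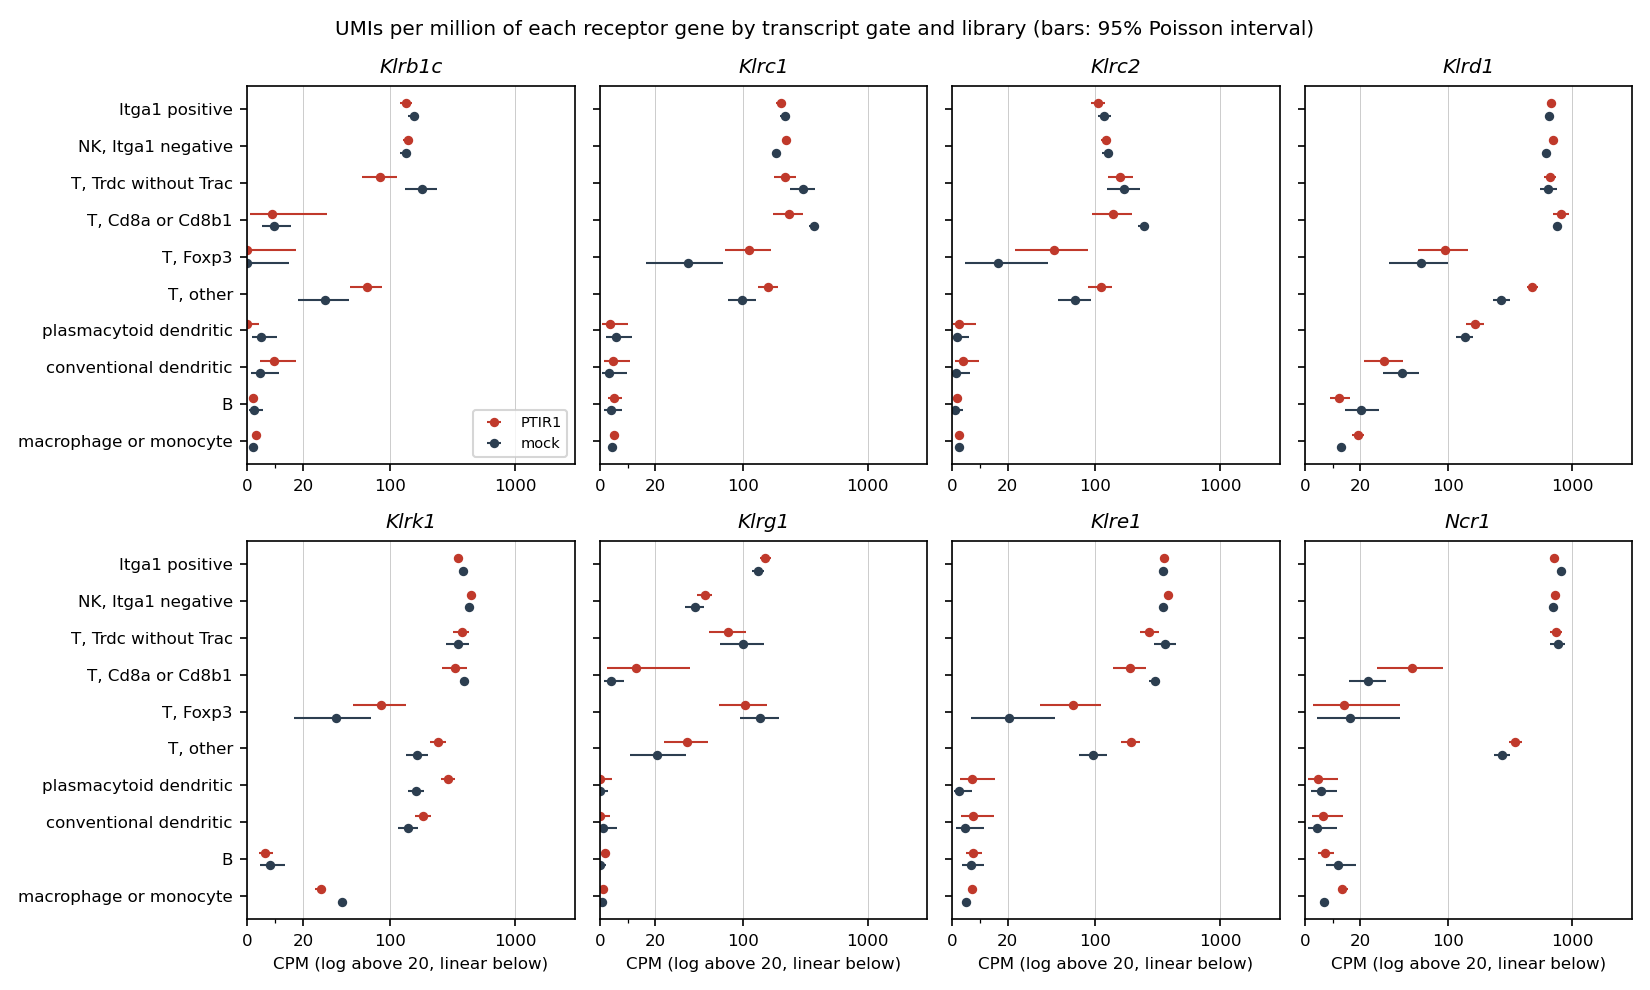
CPM of each receptor gene (horizontal axis, logarithmic above 20 and linear below) in 10 transcript gates (rows) of the PTIR1 (red) and mock (dark) libraries. Points are the level over all cells of a gate and bars its 95% Poisson interval. Klrd1 and Klrk1 stay high in the CD8 T gate while Ncr1 and Klrb1c do not, and Klrk1 stands above the B gate in both dendritic gates.

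The main comparison asked whether these receptors differed between PTIR1 and mock tumours in cells of the same gate. In the NK gate, 0 of 8 receptors were past 1.5-fold in either direction, where 3.15% of 8316 measured genes were at least 1.5-fold higher and 6.25% at least 1.5-fold lower. A gene was measured with at least 50 UMIs over both libraries. Klrc1 was higher in PTIR1 cells by 1.20-fold (1.08 to 1.34), with 863 UMIs in the PTIR1 and 553 UMIs in the mock library. Klrd1 was higher by 1.14-fold (1.07 to 1.21), with 2706 UMIs in the PTIR1 and 1832 UMIs in the mock library. Klre1 was higher by 1.10-fold (1.01 to 1.19). The intervals of the other 5 genes included 1, among them Ncr1 with a ratio of 1.05 (0.993 to 1.11), Klrk1 with 1.02 (0.948 to 1.10) and Klrb1c with 1.04 (0.908 to 1.18).

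Of the 8, 7 lay above 1 and Klrc2 below, at 0.968 (0.844 to 1.11), and the median log2 ratio was 0.10 against -0.05 for all measured genes. This lean depended on how cells were weighed. With each cell weighing the same, 1 of 8 members lay above 1, and the median log2 ratio was -0.14. With each cell thinned to 1000 UMIs, 0 of 7 measured members lay above 1, the median was -0.10, and Klrc2 was past 1.5-fold lower at -0.68. In the 12 other settings tried, no member except Klrc2 in thinned cells was past 1.5-fold.

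In the Itga1 positive gate, 0 of 8 receptors were past 1.5-fold, where 3.32% of 7292 measured genes were at least 1.5-fold higher and 5.54% at least 1.5-fold lower. Ncr1 was lower in PTIR1 cells, with a ratio of 0.881 (0.825 to 0.941) from 1638 PTIR1 and 2028 mock UMIs, and it was the only one of the 8 whose interval left out 1. Klrd1 had a ratio of 1.05 (0.976 to 1.12), Klrk1 of 0.922 (0.838 to 1.01) and Klrc1 of 0.935 (0.825 to 1.06). Klrg1 had a ratio of 1.14 (0.981 to 1.33). Of the 8, 3 lay above 1 and 5 below, and the median log2 ratio was -0.11 against -0.06 for all measured genes. Whether the effect on Ncr1 differed between the 2 gates was not tested.

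**Figure D2:**
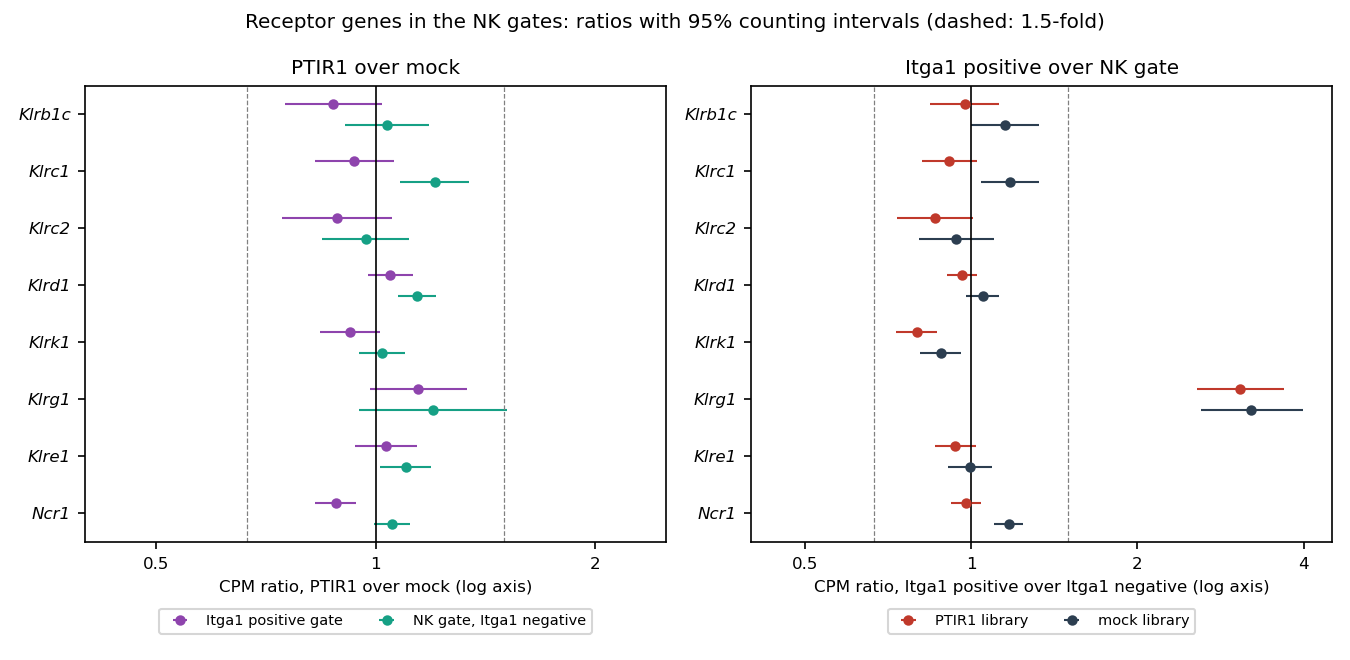
CPM ratios of the 8 receptor genes on logarithmic axes, with 95% counting intervals. The left panel gives PTIR1 over mock in the Itga1 positive (purple) and NK (green) gates, where every point lies within 1.5-fold (dashed lines), and the right panel gives Itga1 positive over NK cells in the PTIR1 (red) and mock (dark) libraries, where Klrg1 alone lies beyond it.

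Within each library, Itga1 positive cells were set against Itga1 negative cells of the NK gate. Klrg1, the cadherin receptor, was higher in Itga1 positive cells in both libraries. Its ratio was 3.07 (2.56 to 3.68) in the PTIR1 library, from 348 UMIs in Itga1 positive and 191 UMIs in NK gate cells. In the mock library it was 3.21 (2.61 to 3.99), from 332 UMIs in Itga1 positive and 123 UMIs in NK gate cells. One of 8 members was thus at least 1.5-fold higher and 0 were at least 1.5-fold lower in each library. Of all measured genes, 3.85% were at least 1.5-fold higher and 6.79% at least 1.5-fold lower in the PTIR1 library, and 4.93% higher and 8.62% lower in the mock library. Klrk1 leaned the other way in both, with a ratio of 0.796 (0.731 to 0.866) in the PTIR1 and 0.881 (0.809 to 0.958) in the mock library. Ncr1 had a ratio of 0.979 (0.921 to 1.04) in the PTIR1 and 1.17 (1.10 to 1.24) in the mock library.

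An Itga1 UMI is found more often in deeply sampled cells, and the Itga1 positive cells were the deeper ones. With each cell thinned to 5000 UMIs before Itga1 was called, a setting chosen after the data were seen, 71 PTIR1 cells had an Itga1 UMI and 347 did not, and 93 mock cells had one and 255 did not. The Klrg1 ratio was then 2.35 (1.66 to 3.31) in the PTIR1 and 1.52 (1.03 to 2.22) in the mock library. Klrk1 stood at 0.766 (0.623 to 0.935) in the PTIR1 library and at 0.965 (0.820 to 1.13) in the mock library. The direction of Klrg1 was the same at equal depth in both libraries, while its ratio in the mock library was less than 0.5 of that from all UMIs.

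Klrg1 was also looked at cell by cell, in the NK and Itga1 positive gates together at 5000 UMIs per cell. It was detected in 99 of 418 PTIR1 cells (23.7%) and 84 of 348 mock cells (24.1%). Itga1 was found, in unthinned cells, in 54.5% of PTIR1 cells with Klrg1 and 25.4% of those without. In mock cells it was found in 59.5% of those with Klrg1 and 37.1% of those without. Before thinning, cells with Klrg1 were deeper, with medians of 14009 UMIs against 10998 UMIs in the PTIR1 library and 14465.5 UMIs against 9853.5 UMIs in the mock library.

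Tcf7, a transcription factor of early NK and T cells, was lower in cells with Klrg1, with a ratio of 0.503 (0.271 to 0.872) in the PTIR1 library from 15 and 96 UMIs. Its ratio was 0.421 (0.228 to 0.724) in the mock library from 15 and 112 UMIs. It was past 1.5-fold lower in both libraries. Of all measured genes, 2.94% in the PTIR1 and 4.26% in the mock library were at least 1.5-fold higher in cells with Klrg1, and 11.6% in the PTIR1 and 9.35% in the mock library at least 1.5-fold lower. Of the other 7 receptors, 0 were past 1.5-fold higher in either library, and 1 in the PTIR1 and 0 in the mock library were past 1.5-fold lower. Cd27, a costimulatory receptor of less mature mouse NK cells, had ratios of 0.612 (0.386 to 0.935) in the PTIR1 and 0.746 (0.475 to 1.13) in the mock library. Over the maturation list, 3 of 11 measured genes in the PTIR1 and 3 of 12 in the mock library were at least 1.5-fold lower and 0 higher, and of the measured genes Tcf7 alone was so in both. Among other genes of the list, Itgam stood at 0.829 in the PTIR1 and 1.25 in the mock library, Zeb2 at 0.848 in the PTIR1 and 0.991 in the mock library, and Itga2 at 0.612 in the PTIR1 and 1.42 in the mock library. Tbx21 stood at 1.14 in the PTIR1 and 1.08 in the mock library. Among the other receptors, Klrc2 and Klrk1 were lower in PTIR1 cells with Klrg1, at 0.633 (0.449 to 0.875) and 0.705 (0.587 to 0.842). In mock cells the same genes stood at 1.10 (0.819 to 1.47) and 0.974 (0.823 to 1.15). Klrd1 stood at 0.913 (0.811 to 1.03) in the PTIR1 and 0.974 (0.852 to 1.11) in the mock library.

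**Figure D3:**
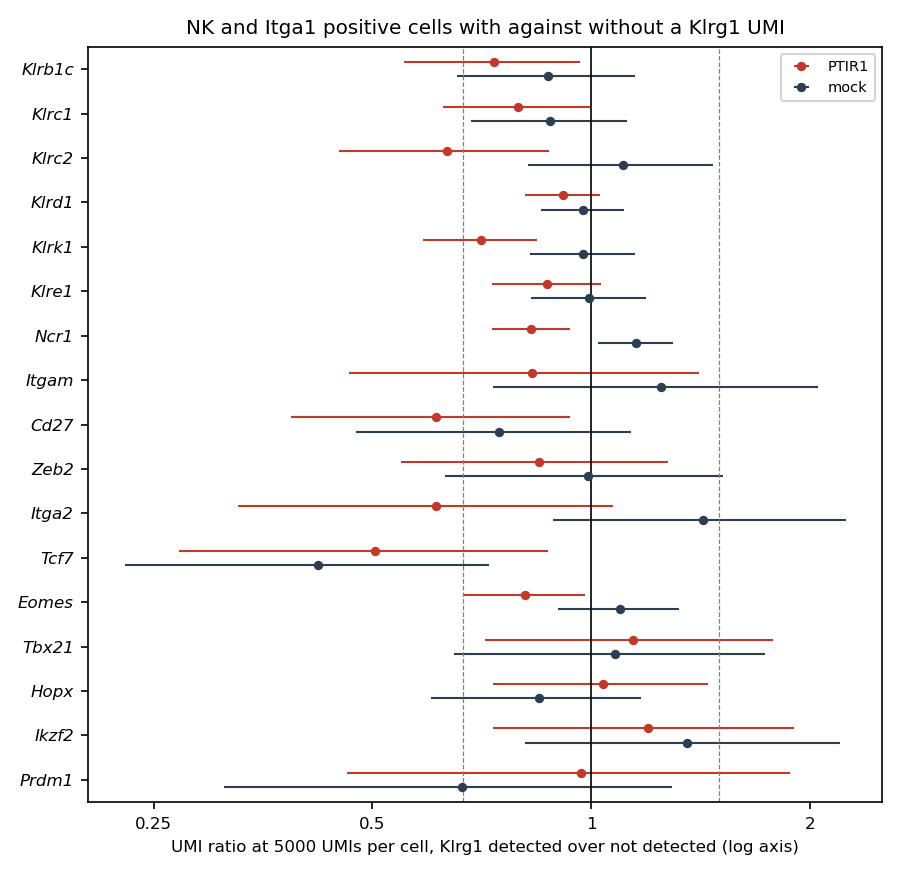
Ratio of UMIs at 5000 UMIs per cell, in cells with over cells without a Klrg1 UMI (logarithmic axis), for the other 7 receptors and for maturation genes measured in both libraries that are reported here. Points are the PTIR1 (red) and mock (dark) libraries and bars the 95% counting intervals. Tcf7 lies below 1 in both libraries.

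The share of cells with a UMI of each receptor was compared at 1000 UMIs per cell, which left out 23 PTIR1 and 14 mock cells of the NK gate and none of the Itga1 positive gate. Klrd1 was found in 50.7% (42.2 to 59.1%) of PTIR1 and 48.5% (40.6 to 56.4%) of mock Itga1 positive cells. In the NK gate it was found in 47.5% (42.6 to 52.4%) of PTIR1 and 49.5% (43.9 to 55.2%) of mock cells. Ncr1 was found in 46.7% (41.8 to 51.7%) of PTIR1 and 51.4% (45.8 to 57.0%) of mock cells of the NK gate. Klrc2 was found in 9.93% (7.22 to 13.2%) of PTIR1 and 17.0% (13.1 to 21.6%) of mock cells of the NK gate. The intervals of the 2 libraries overlapped for all 8 receptors in the NK gate. At 2000 UMIs those of Klrc2 did not, with 18.2% (14.3 to 22.5%) of PTIR1 and 28.9% (23.6 to 34.7%) of mock cells, while at 5000 UMIs it was found in 39.6% of PTIR1 and 41.0% of mock cells.

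More receptors are seen in a cell at 5000 UMIs, a depth chosen after the data were seen, which left out 153 PTIR1 and 131 mock cells of the NK gate. The order of the libraries for Ncr1 in the NK gate was then the opposite, with 92.6% (88.9 to 95.3%) of PTIR1 and 83.5% (77.6 to 88.4%) of mock cells. Without thinning it was 80.3% of PTIR1 and 78.5% of mock cells, so no difference in the share of Ncr1 is read from these values. Klrd1 was found at 5000 UMIs in 96.5% (93.6 to 98.3%) of PTIR1 and 91.0% (86.1 to 94.6%) of mock cells of the NK gate. The median cell held 5 of the 8 receptors in PTIR1 and 5.5 in mock Itga1 positive cells, and 5 in both libraries in the NK gate. For comparison, unthinned B cells, with median depths of 4517 UMIs in the PTIR1 and 4289.5 UMIs in the mock library, had a Klrd1 UMI in 6.003% of PTIR1 and 8.84% of mock cells.

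At 5000 UMIs, Klrc1 and Klrc2, the inhibitory and activating partners of Klrd1, were found together in 89 of 283 PTIR1 and 56 of 200 mock cells of the NK gate. If the 2 genes were independent across cells, 61.3 PTIR1 and 39.8 mock cells would hold both. The observed counts were 1.45 times that number in the PTIR1 and 1.41 times in the mock library, and in Itga1 positive cells 1.16 times in the PTIR1 and 1.20 times in the mock library. These 2 genes also share transcript sequence, and its part in the joint detection was not tested. No cell of the CD8 T gate held all 8 receptors, while 8 PTIR1 and 5 mock cells of the NK gate did.

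**Figure D4:**
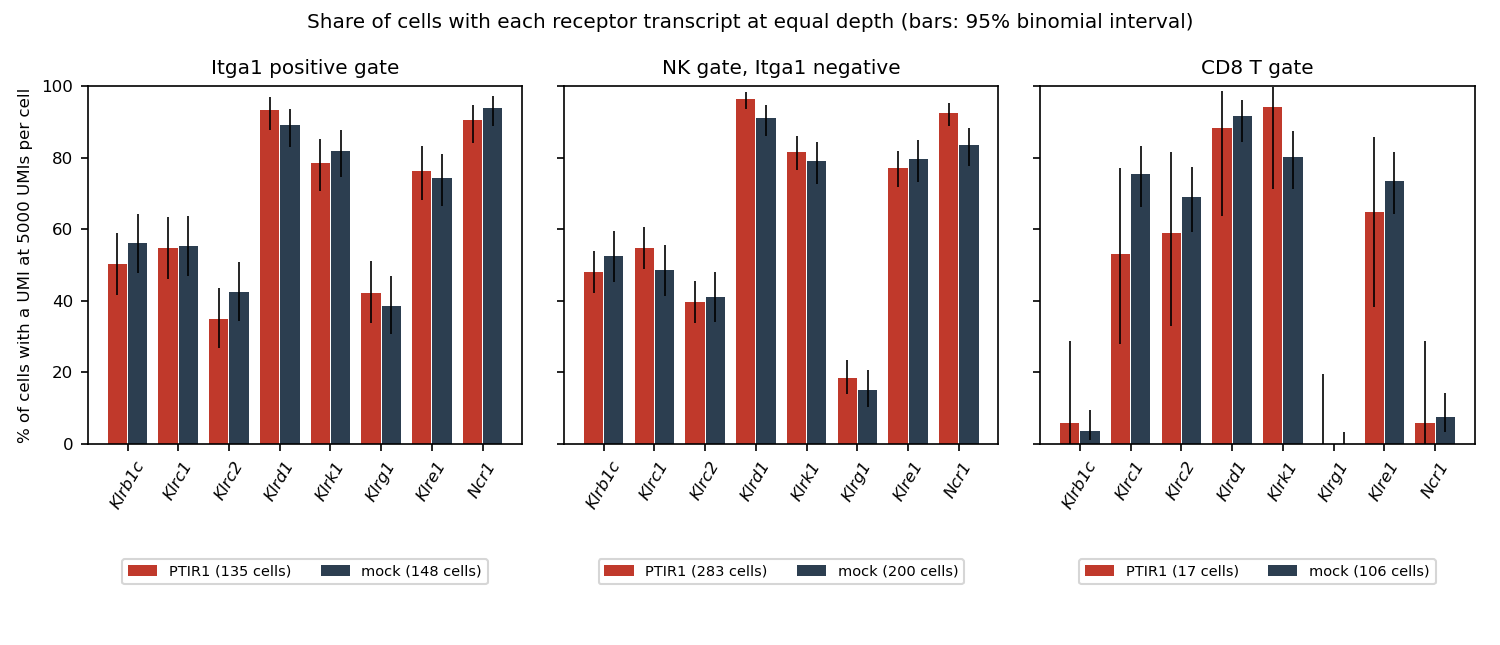
Share of cells with at least 1 UMI of each receptor at 5000 UMIs per cell, in the Itga1 positive, NK and CD8 T gates of the PTIR1 (red) and mock (dark) libraries. Bars start at 0 and their error bars are exact 95% binomial intervals. Klrd1, Klrk1 and Klre1 are common in all 3 gates, while Ncr1 and Klrb1c are found in under 8% of CD8 T cells. In the NK gate Ncr1 is higher in PTIR1 cells here and lower at 1000 UMIs per cell.

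CD8 T cells, gated by T cell receptor complex transcripts and Cd8a or Cd8b1 without Foxp3, numbered 22 in the PTIR1 and 126 in the mock library. They carried Klrd1, Klrc1, Klrc2, Klrk1 and Klre1, and had little Ncr1, Klrb1c and Klrg1. Set against the NK gate, Klrd1 had a ratio of 1.15 (0.988 to 1.34) in the PTIR1 library and 1.23 (1.14 to 1.32) in the mock library. Klrc1 stood at 1.05 (0.782 to 1.38) in the PTIR1 library and 1.99 (1.77 to 2.24) in the mock library. For Klrc2 the ratio was 1.14 (0.769 to 1.63) in the PTIR1 and 1.94 (1.67 to 2.25) in the mock library. Klrk1 stood at 0.751 (0.589 to 0.946) in the PTIR1 and 0.905 (0.819 to 0.999) in the mock library. Klre1 was lower, at 0.498 (0.361 to 0.673) in the PTIR1 and 0.858 (0.766 to 0.959) in the mock library. Thus Klrc1 and Klrc2 were past 1.5-fold higher in mock CD8 T cells than in mock NK cells, and not in the PTIR1 library.

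Ncr1 marked the difference between CD8 T cells and the NK gate. It had 12 UMIs (52.2 CPM) in PTIR1 and 34 UMIs (22.8 CPM) in mock CD8 T cells, and all 12 of the PTIR1 UMIs and 18 of the 34 mock UMIs came from 1 cell each. This was 14.0-fold lower (8.002 to 27.1) than in the NK gate of the PTIR1 library and 30.4-fold lower (21.7 to 44.0) than in that of the mock library. Klrb1c was 14.2-fold lower (8.36 to 26.2) in mock CD8 T cells than in mock NK cells. In PTIR1 CD8 T cells it had 2 UMIs, a ratio of 0.0629 (0.0076 to 0.228). Klrg1 was 10.3-fold lower (4.58 to 28.5) in mock CD8 T cells, where it had 6 UMIs in 2 of 126 cells, and its 3 UMIs in PTIR1 CD8 T cells gave a ratio of 0.263 (0.0538 to 0.781). Over the 8 genes, 0 were at least 1.5-fold higher and 4 lower in the PTIR1 library, where 12.9% of 6883 measured genes were higher and 24.3% lower. In the mock library 2 were higher and 3 lower, where 12.2% of 7424 measured genes were higher and 14.8% lower.

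**Figure D5:**
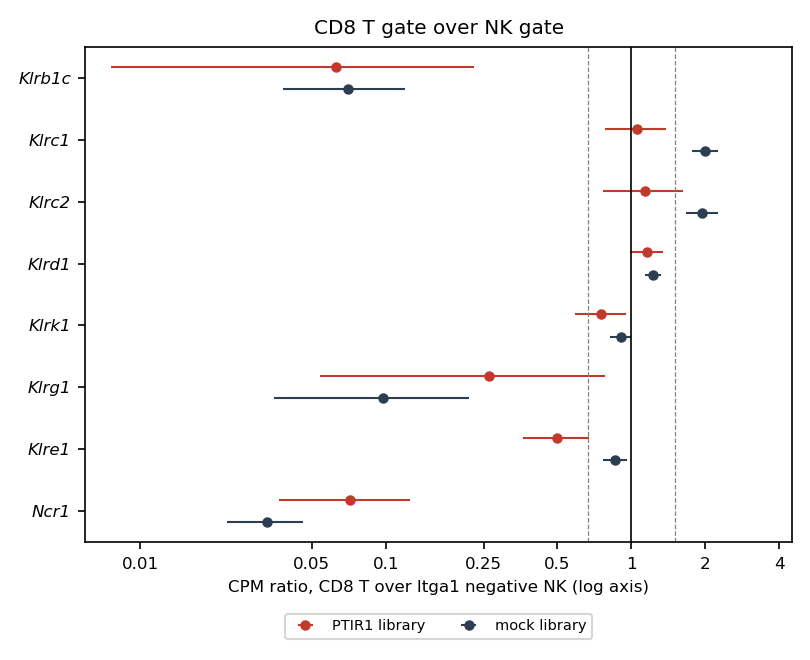
CPM ratio of CD8 T cells over the NK gate for each receptor gene (logarithmic axis), in the PTIR1 (red) and mock (dark) libraries, with 95% counting intervals and dashed lines at 1.5-fold. Klrb1c, Klrg1 and Ncr1 lie far to the left in both libraries, and Klrc1 and Klrc2 lie near 2 in the mock library only.

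Between the tumour groups, the CD94 partners were lower in PTIR1 than in mock CD8 T cells. Klrc1 stood at 235 CPM in PTIR1 and 370 CPM in mock CD8 T cells, a ratio of 0.635 (0.471 to 0.840). Klrc2 stood at 139 CPM in PTIR1 and 245 CPM in mock cells, a ratio of 0.568 (0.383 to 0.816). Klre1 stood at 191 CPM in PTIR1 and 300 CPM in mock cells, a ratio of 0.639 (0.458 to 0.872). With the main settings their common chain Klrd1 did not follow Klrc1 and Klrc2, with 809 CPM in PTIR1 and 757 CPM in mock cells (1.07, 0.910 to 1.25). Over the settings tried its log2 ratio ran from -0.55 to 0.23, so its direction depended on them. Klrk1 had a ratio of 0.847 (0.658 to 1.08). Of the 5 measured genes, 3 were at least 1.5-fold lower and 0 higher, where 17.8% of 4423 measured genes were lower and 7.87% higher. The median log2 ratio was -0.65, against -0.03 for all measured genes. The PTIR1 values rest on 22 cells, and macrophage markers summed to 348 CPM in PTIR1 and 828 CPM in mock CD8 T cells. Their part in the result was not tested. Over the settings tried the log2 ratio of Klrc1 ran from -1.64 to -0.47 and that of Klre1 from -0.73 to -0.43, so that both were within 1.5-fold in some, while Klrc2 ran from -1.12 to -0.75.

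The other T cells differed among themselves. Regulatory T cells, gated by Foxp3, numbered 19 in the PTIR1 and 32 in the mock library and carried Klrg1 at 104 CPM in PTIR1 and 139 CPM in mock cells. It was found in 8 of 19 PTIR1 and 15 of 32 mock cells, against 1 of 22 PTIR1 and 2 of 126 mock CD8 T cells. Klrb1c had 0 UMIs in regulatory T cells of either library. T cells with Trdc and without Trac numbered 31 in the PTIR1 and 17 in the mock library. The rule would call them gamma delta T cells, and part of the data went against that name. Ncr1 stood at 741 CPM in PTIR1 and 761 CPM in mock cells of this gate, its level in the NK gate. Cd3e was found in 7 of 31 PTIR1 and 5 of 17 mock cells. Cd3d was found in 30 of 31 PTIR1 and 16 of 17 mock cells, and Cd3g in 31 of 31 PTIR1 and 16 of 17 mock cells. The gate itself needs 2 of Cd3d, Cd3e and Cd3g, since Trac is absent. Txk, an NK marker, was found in 29 of 31 PTIR1 and 17 of 17 mock cells. Trdc itself was found in 267 of 436 PTIR1 and 191 of 331 mock cells of the NK gate. One of 8 receptors, Klrb1c, was at least 1.5-fold lower in PTIR1 cells of this gate, at 0.464 (0.296 to 0.725), where 9.51% of 2114 measured genes were lower and 6.48% higher.

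In the remaining T cells, 70 in the PTIR1 and 80 in the mock library, all 7 measured receptors lay above 1 and 5 were at least 1.5-fold higher in PTIR1 cells, where 8.45% of 3777 measured genes were higher and 8.21% lower. Klrd1 had 478 CPM in PTIR1 and 270 CPM in mock cells, a ratio of 1.77 (1.47 to 2.14). NK markers moved with it, at 5969 CPM in PTIR1 and 3350 CPM in mock cells of this gate, with Eomes in 23 of 70 PTIR1 and 10 of 80 mock cells. Ncr1 was found in 27 of 70 PTIR1 and 20 of 80 mock cells here. Its level was 350 CPM in PTIR1 and 275 CPM in mock cells. Over all T cells together, 142 in the PTIR1 and 255 in the mock library, 3 of 8 receptors were at least 1.5-fold higher and 0 lower, where 3.62% of 7318 measured genes were higher and 8.69% lower. These were Ncr1 at 2.44 (2.15 to 2.77), Klrb1c at 1.79 (1.31 to 2.46) and Klrg1 at 1.77 (1.29 to 2.43). Within the pooled gates, Ncr1 was past 1.5-fold in none where it was measured. Its ratio was 1.27 (1.04 to 1.55) in the remaining T cells and 0.975 (0.817 to 1.17) in Trdc cells. It had too few UMIs to be measured in CD8 and regulatory T cells. Klrb1c had ratios of 2.16 in the remaining T cells and 0.464 in Trdc cells. Klrg1 was below 1 in the gates where it was measured, Trdc cells (0.759, 0.448 to 1.31) and regulatory T cells. CD8 T cells made up 22 of 142 PTIR1 and 126 of 255 mock T cells, and NK markers summed to 6362 CPM in PTIR1 and 4744 CPM in mock T cells. The part of these in the ratios was not tested, and the counts depended on the cells included. Without the Trdc cells 3 receptors were at least 1.5-fold higher and 2, Klrc1 and Klrc2, were at least 1.5-fold lower. The log2 ratios were then -0.66 for Klrc1, -0.74 for Klrc2 and 1.36 for Ncr1. In cells with at least 3 of Cd3d, Cd3e, Cd3g and Trac, 2 of 7 measured receptors, Ncr1 (1.03) and Klrg1 (1.35), were higher and 3, Klrc1 (-0.70), Klrc2 (-0.86) and Klre1 (-0.73), were lower on the log2 scale. The shares of all measured genes past 1.5-fold were not computed under these settings, so the counts have no background beside them.

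Klrk1 and Klrd1 were also found in cells outside the NK and T lineages. Plasmacytoid dendritic cells, the interferon-producing dendritic lineage, numbered 85 in the PTIR1 and 100 in the mock library. They held Klrk1 at 290 CPM (255 to 328) in the PTIR1 and 161 CPM (140 to 185) in the mock library. The ratio was 1.80 (1.49 to 2.18), and of the 2 receptors measured in this gate Klrk1 alone was past 1.5-fold, where 3.55% of 5211 measured genes were at least 1.5-fold higher and 8.42% lower. Klrd1 stood at 167 CPM in PTIR1 and 137 CPM in mock plasmacytoid cells (1.22, 0.970 to 1.53). Ncr1 had 4 UMIs in PTIR1 and 7 UMIs in mock plasmacytoid cells, and NK markers summed to 131 CPM in the PTIR1 and 138 CPM in the mock gate. There were 62.0 Klrk1 UMIs per Ncr1 UMI in PTIR1 and 28.4 in mock plasmacytoid cells, against 0.602 in PTIR1 and 0.621 in mock cells of the NK gate. At 1000 UMIs per cell Klrk1 was found in 18 of 84 PTIR1 (21.4%) and 12 of 95 mock (12.6%) plasmacytoid cells, against 7 of 725 PTIR1 (0.966%) and 6 of 391 mock (1.53%) B cells. Unthinned, it was found in 72.9% of PTIR1 and 65.0% of mock plasmacytoid cells, with median depths of 10577 UMIs in PTIR1 and 12030.5 UMIs in mock cells.

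Conventional dendritic cells, which present antigen to T cells, held Klrk1 at 183 CPM in 63 PTIR1 cells and 140 CPM in 50 mock cells (1.31, 1.04 to 1.66). Klrd1 stood at 31.2 CPM in PTIR1 and 42.8 CPM in mock conventional dendritic cells. Macrophages and monocytes held much less Klrk1, 27.7 CPM in 1494 PTIR1 and 41.3 CPM in 2763 mock cells, a ratio of 0.670 (0.601 to 0.746). There were 2.05 Klrk1 UMIs per Ncr1 UMI in PTIR1 and 6.05 in mock macrophages. The part of NK cell RNA in the Klrk1 of macrophages was not tested. Ncr1 itself stood at 13.5 CPM in PTIR1 and 6.82 CPM in mock macrophages. The B gate held 7.32 CPM in the PTIR1 and 12.1 CPM in the mock library. NK markers summed to 268 CPM in PTIR1 and 148 CPM in mock macrophages, and their part in the Ncr1 difference was not tested. Klrb1c and Ncr1 were the 2 of 7 measured receptors at least 1.5-fold higher in PTIR1 macrophages and 0 were lower, where 4.65% of 11449 measured genes were higher and 3.98% lower.

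Partners of these receptors were taken from lists chosen by name. Of 14 adaptor and signalling genes, 0 were past 1.5-fold between PTIR1 and mock cells in the NK gate or in the Itga1 positive gate. Of all measured genes, 3.15% were higher and 6.25% lower in the NK gate, and 3.32% higher and 5.54% lower in the Itga1 positive gate. With 14 genes, a count of 0 is close to these shares. Tyrobp, the adaptor DAP12, had 1849 CPM in PTIR1 and 1642 CPM in mock cells of the NK gate (1.13, 1.09 to 1.17), and 2090 CPM in PTIR1 and 2270 CPM in mock Itga1 positive cells (0.921, 0.886 to 0.957). Fcer1g, through which Ncr1 signals, stood at 835 CPM in PTIR1 and 716 CPM in mock Itga1 positive cells (1.17, 1.09 to 1.24), and Ptpn6, the phosphatase SHP-1 used by inhibitory receptors, at 91.0 CPM in PTIR1 and 68.2 CPM in mock cells of the NK gate (1.33, 1.12 to 1.59). In CD8 T cells Tyrobp was 19.3-fold lower than in the NK gate of the PTIR1 library and 5.21-fold lower than in that of the mock library, while Hcst stood at 352 CPM in PTIR1 and 275 CPM in mock CD8 T cells. Macrophages carry Tyrobp at over 2000 CPM, and the part of macrophage RNA in the Tyrobp of CD8 T cells was not tested.

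Of 29 other NK receptor genes, 19 were measured in the NK gate and 2 were at least 1.5-fold higher and 0 lower in PTIR1 cells, where 3.15% of all measured genes were higher and 6.25% lower. They were the Ly49 genes Klra1, at 36.8 CPM in PTIR1 and 17.8 CPM in mock cells (2.07, 1.498 to 2.89), and Klra4, at 16.6 CPM in PTIR1 and 10.4 CPM in mock cells (1.59, 1.02 to 2.53). The Ly49 genes are similar in sequence, so the assignment of reads to single genes is uncertain. The effect of counting BALB/c reads on mm10 was not tested for them either. In the Itga1 positive gate 17 were measured, 0 were higher and 2 were lower, where 3.32% of all measured genes were higher and 5.54% lower. They were the activating receptor Cd226, with a ratio of 0.600 (0.437 to 0.817), and Klrb1b, an inhibitory NKR-P1 receptor, with 0.545 (0.297 to 0.970). Cd96, which like Cd226 binds nectin-like ligands, followed Klrg1 in being higher in Itga1 positive than in NK gate cells, by 2.10-fold (1.65 to 2.66) in the PTIR1 and 2.75-fold (2.06 to 3.71) in the mock library. Cd160 did so too, by 1.65-fold (1.28 to 2.12) in the PTIR1 and 1.76-fold (1.39 to 2.23) in the mock library. In this comparison 19 genes of the list were measured in the PTIR1 library, and 4 were at least 1.5-fold higher and 5 lower. In the mock library 18 were measured, and 7 were higher and 2 lower. Of all measured genes, 3.85% were higher and 6.79% lower in the PTIR1 library, and 4.93% higher and 8.62% lower in the mock library. Cd96, Cd160 and the rest of the list were not compared with Itga1 called at equal depth.

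Of 18 maturation genes, 15 were measured in the NK gate, 0 were higher and 2 were lower past 1.5-fold in PTIR1 cells, against the 3.15% and 6.25% of all measured genes. These were Il7r, the interleukin-7 receptor chain, at 11.9 CPM in PTIR1 and 23.9 CPM in mock cells (0.4998, 0.337 to 0.734), and Cma1, at 19.7 CPM in PTIR1 and 55.8 CPM in mock cells (0.353, 0.266 to 0.466). Cma1, a chymase, is also a mast cell gene, and it was lower in PTIR1 B cells as well (0.200, 0.141 to 0.280), in a library with 94 mast cells or basophils against 420 in the mock library. The part of mast cell RNA in the Cma1 difference was not tested. In Itga1 positive cells, 13 were measured, 1 was higher and 2 were lower, against 3.32% and 5.54% of all measured genes. The integrin chain Itgam had a ratio of 1.52 (1.06 to 2.18), Cma1 of 0.379 (0.201 to 0.683) and Hopx, a homeodomain protein, of 0.582 (0.497 to 0.681). Within libraries, Itga1 positive cells had more Hopx than the NK gate, by 1.79-fold (1.49 to 2.15) in the PTIR1 and 2.996-fold (2.52 to 3.57) in the mock library, and less Itga2, the integrin chain CD49b of circulating NK cells, with ratios of 0.470 (0.337 to 0.647) in the PTIR1 and 0.339 (0.243 to 0.465) in the mock library. Of 14 maturation genes measured in this comparison, 1 was at least 1.5-fold higher and 5 lower in the PTIR1 library. In the mock library 2 of 14 were higher and 7 lower. The shares of all measured genes were 3.85% higher and 6.79% lower in the PTIR1, and 4.93% higher and 8.62% lower in the mock library. Hopx, Itga2 and the rest of this list were not compared with Itga1 called at equal depth either.

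Ligands were read in the cells that may display them. In macrophages, H2-T23, which encodes the ligand of both CD94 pairs, stood at 245 CPM in PTIR1 and 377 CPM in mock cells, a ratio of 0.650 (0.627 to 0.674). It was 1 of 2 of the 10 measured ligand genes that were at least 1.5-fold lower in PTIR1 macrophages, with Raet1d at 0.611 (0.373 to 0.971), and 0 were higher. Of 11449 measured genes in macrophages, 3.98% were lower and 4.65% higher. In the NK gate itself 3.15% of 8316 measured genes were at least 1.5-fold higher and 6.25% lower. Of the 6 ligand genes measured in the NK gate, 1 was at least 1.5-fold higher and 0 lower. This was Cfp, properdin, at 22.0 CPM in PTIR1 and 12.1 CPM in mock cells (1.82, 1.22 to 2.77). In the Tm4sf1-led gate of tumour marker cells, H2-T23 stood at 60.7 CPM in PTIR1 and 50.7 CPM in mock cells (1.20, 1.06 to 1.35). Ulbp1, a ligand of Klrk1, was lower there, at 13.5 CPM in PTIR1 and 38.3 CPM in mock cells (0.353, 0.289 to 0.429). H60b, another such ligand, stood at 13.4 CPM in PTIR1 and 9.999 CPM in mock cells (1.34, 1.02 to 1.77). Clec2d, a ligand of inhibitory NKR-P1 receptors, was higher in that gate, at 87.5 CPM in PTIR1 and 20.5 CPM in mock cells (4.28, 3.64 to 5.05), as was Cfp (1.70). Of the 6 ligand genes measured there, 2 were at least 1.5-fold higher and 1 lower, where 12.1% of 10117 measured genes were higher and 9.46% lower. The gate held 275 PTIR1 and 91 mock cells, at median depths of 29027 UMIs in PTIR1 and 73313 UMIs in mock cells, and the way it was split from matrix cells was chosen with the data in view. Raet1e, a ligand of Klrk1 as well, stood at 57.0 CPM in PTIR1 and 61.2 CPM in mock macrophages (0.931, 0.861 to 1.01). For the ligand genes, Raet1d and Raet1e included, neither the effect of counting BALB/c reads on mm10 nor sequence shared between genes was tested.

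The genes whose levels followed each receptor most closely were ranked by Pearson correlation of log2(CPM + 1) over 20 points, the 10 gates with at least 50 cells in each library, among 12196 genes. The points share 2 libraries and the contrast of lymphocytes with other cells, so the values are a description. Klrd1 was followed most closely by Cd244a (r = 0.948), Ctsw (0.946) and Txk (0.920). Klrc1 was followed by Il2rb (0.991), Trbc1 (0.989) and Eomes (0.985), and several of these genes are NK markers of the gates. Klrg1 was followed by Kcnc1 (0.977), Cd96 (0.976) and Eya2 (0.971). Ncr1 was followed by Sh2d1a (0.990), Il2rb (0.990) and Nkg7 (0.989). Klrk1, with its levels in dendritic cells, had lower correlations with Ncr1 (0.669) and Klrc1 (0.739) than with Klrd1 (0.904), and was followed by Me2 (0.958), Slc9a9 (0.943) and Selplg (0.935).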

How the data were processed

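The authors deposited UMI counts for each barcode, and the file headers name Cell Ranger 5.0.0. Seurat 3.2.3 and mm10 are named in the submitters' processing notes, and the labels' protocols name version 3.1 of the 3′ kit. The annotation version and any sort are not given in the sources used here. The receptors and gene lists were chosen with earlier results of these data known. Lists were given by counts, with examples among the 4 members furthest from a ratio of 1 by the nearest end of the interval, and values of other members were chosen after they were seen.

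Barcodes passed with 200 or more genes and no more than 10% mitochondrial UMIs (7567 PTIR1, 9328 mock). Scrublet (scanpy 1.11.5) called 0 PTIR1 and 1 mock doublets by its automatic threshold, so the highest scores were removed at 0.8% per 1000 cells in both libraries (458 PTIR1, 696 mock). Gates needed 3 markers of a list (T: 2 of Cd3d, Cd3e, Cd3g and Trac and 1 other). Mixed barcodes (a second list at a share of at least 0.75, or macrophage markers at 25% or more of the macrophage level) and the split of tumour from matrix cells used limits set after the data were seen. UMIs were summed per gate and divided by the gate's total to give CPM, with exact Poisson intervals. Ratios have exact conditional binomial intervals and shares exact binomial intervals. Cells were thinned without replacement for shares, to 1000 UMIs as the main setting and to 5000 UMIs, a depth chosen after the data were seen. Symbols of 179 of 179 gene identifiers looked up in GENCODE vM21 were the same, and promoters were RefSeq's. One gene of the maturation list is counted with its list and is not reported here by itself. The labels do not say whether a library pooled mice. Ratios were tested on simulated data with known changes, and thinned cells were checked to keep their mean gene fractions. Another 15 settings were tried, with 2 more added later. Software was Python 3.11.15, pandas 2.3.3, scipy 1.17.1, numpy 2.4.6 and matplotlib 3.10.9.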

Additional observations from a re-analysis of the deposited data

Results flagged for a closer look

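With 1 library per group, none of these differences was tested. Several receptors lay past 1.5-fold in opposite directions in different gates, with intervals that left out 1. Klrc1 had a PTIR1 over mock ratio of 0.635 in CD8 T cells and 1.61 in the remaining T cells. Klrc2 had ratios of 0.568 and 1.59 in the same gates, and Klre1 of 0.639 and 1.99. In the remaining T cells NK markers were also higher in the PTIR1 library, and their part was not tested. Klrb1c had a ratio of 0.464 in Trdc T cells, 2.16 in the remaining T cells and 1.69 in macrophages, where its level was under 4 CPM in both libraries. Klrd1 had a ratio of 1.77 in the remaining T cells and 0.608 in B cells, where 49 PTIR1 and 37 mock UMIs were counted.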

How the results depend on the processing

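No paired analysis was possible because each group had 1 library. The median log2 ratio of the receptors is given here. In the NK gate (0.10, PTIR1 over mock) it was -0.14 with each cell weighing the same and -0.10 at 1000 UMIs per cell. In CD8 T cells (-0.65) it was -0.18 with no minimum on UMIs, which adds 3 genes with few UMIs. In all T cells (-0.11) it was -0.58 with at least 3 of Cd3d, Cd3e, Cd3g and Trac. For Itga1 positive over NK gate cells it was, in the PTIR1 library (-0.07), 0.076 with each cell weighing the same and 0.11 with at least 2 NK markers, and, in the mock library (0.14), -0.16 at 1000 UMIs per cell, 0.32 with at least 2 NK markers and -0.023 with at least 4. Beyond these the causes were not tested. The Klrg1 log2 ratio of Itga1 positive over NK gate cells ran from 1.23 to 2.06 in the PTIR1 and from 0.61 to 1.88 in the mock library, the lowest with Itga1 called at 5000 UMIs. In CD8 T cells Klrc1 ran from -1.64 to -0.47, Klrc2 from -1.12 to -0.75 and Klre1 from -0.73 to -0.43, so that Klrc1 and Klre1 were within 1.5-fold in some settings. Klrd1 ran from -0.55 to 0.23 in CD8 T cells. In the NK, Itga1 positive, CD8 T and all T comparisons and in that of Itga1 positive with NK gate cells, no receptor past 1.5-fold with the settings of the report changed its direction. Other gates, and CD8 T cells against NK cells, were not run under other settings. Klrc2 in the NK gate ran from -0.68 to 0.07. The 22 PTIR1 CD8 T cells, and UMIs from other cells in gates with low levels, limit what can be read.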
